A study of Mus musculus with 128 samples.

Results

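The mRNA of 32 genes of fatty acid and cholesterol synthesis was followed with age across 8 tissues of the mouse. The 32 genes were picked by name as 15 genes of the fatty acid arm (the SREBP1 type) and 17 genes of the cholesterol arm (the SREBP2 type), out of 55285 gene symbols in the tables, without a threshold on measured values. The fatty acid genes were Fasn, Acaca, Acacb, Acly, Acss2, Me1, Scd1, Scd2, Elovl5, Elovl6, Fads1, Fads2, Thrsp, Pnpla3 and Srebf1. The cholesterol genes were Srebf2, Insig1, Stard4, Acat2, Hmgcs1, Mvk, Mvd, Idi1, Fdps, Fdft1, Sqle, Lss, Msmo1, Nsdhl, Hsd17b7, Sc5d and Dhcr7. Bulk RNA was profiled from skin, gastrocnemius muscle, lung, liver, kidney, heart, brain and aorta. Mice aged 30, 24 or 15 months were compared with mice aged 6 months, with 4 libraries for each tissue and age. The mice were wild-type, untreated C57BL/6J males; for aorta the records give age alone, and sex and strain come from the description of the series. Nothing in the labels says that libraries of the same number from different tissues came from the same mouse, and feeding state and time of day are not given in the sources used here. Both are known to move this pathway, so their part in any change with age was not tested.

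In fatty acid synthesis, citrate leaves the mitochondrion and is split by ATP citrate lyase (Acly) into acetyl-CoA, which acetyl-CoA carboxylase turns into malonyl-CoA. Fatty acid synthase (Fasn) builds palmitate from both with NADPH, part of which malic enzyme (Me1) supplies, and elongases (Elovl) and desaturases (Scd, Fads) then lengthen the chain and add double bonds. Cholesterol is made from the same acetyl-CoA through HMG-CoA, mevalonate, isoprenoids, squalene and lanosterol. SREBP1 (Srebf1) drives the first set after feeding and insulin, and SREBP2 (Srebf2) drives the second when sterols in the endoplasmic reticulum are low, while Insig1 holds both factors back. Liver and adipose tissue are known for fatty acid synthesis, brain and skin for making their own cholesterol.

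SREBPs bind sterol regulatory elements close to the start site, often next to a CCAAT box that binds NF-Y. RefSeq promoter windows on GRCm38.p6, each 250 bases before to 50 bases after the start site, were matched for 25 of the 32 genes. The letters TCACNNCAC were found on either strand in 4 of the 13 matched cholesterol genes (Hmgcs1, Hsd17b7, Msmo1 and Dhcr7) and in 0 of the 12 matched fatty acid genes, and 4.37% of all 27025 genes with a window hold them in at least 1 of their windows. CCAAT was found in 12 of the 13 cholesterol and 9 of the 12 fatty acid genes, against 41.1% of all genes. CACGTG, an E-box, was found in 4 of the 13 and 1 of the 12, against 8.09% of all genes. In Msmo1 a CCAAT and the sterol element overlap by 1 base. These matches describe letters in the windows and are not evidence of binding. The windows of Hmgcs1, the gene past the threshold in most comparisons among the 4, and of Hsd17b7, which passed in muscle, are shown with the sterol element in capitals; the first lies at chr13:119690101-119690400 on the plus strand and the second at chr1:169969156-169969455 on the minus strand.
Hmgcs1: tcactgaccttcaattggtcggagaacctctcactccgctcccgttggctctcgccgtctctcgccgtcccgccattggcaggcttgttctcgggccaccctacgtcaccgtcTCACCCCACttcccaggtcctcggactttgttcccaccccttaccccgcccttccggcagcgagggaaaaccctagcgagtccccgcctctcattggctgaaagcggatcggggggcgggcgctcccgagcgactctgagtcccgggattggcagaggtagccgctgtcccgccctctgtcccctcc
Hsd17b7: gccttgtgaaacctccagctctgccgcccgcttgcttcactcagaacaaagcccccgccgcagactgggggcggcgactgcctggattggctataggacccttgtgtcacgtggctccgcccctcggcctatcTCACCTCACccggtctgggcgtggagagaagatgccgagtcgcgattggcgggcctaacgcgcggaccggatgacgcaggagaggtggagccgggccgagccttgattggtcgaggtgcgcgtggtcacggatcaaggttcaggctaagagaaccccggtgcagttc

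Libraries held 7.65 M to 82.8 M reads (M for megareads), with a median of 15.6 M, and the deposited values are reads divided by 1 size factor per library within each tissue's table. Every tissue had its own markers at high level (hepatocyte genes in liver, tubule genes in kidney, alveolar type 2 genes in lung). In aorta the summed level of 12 white adipocyte markers was 367824 to 414647 at 30 months and 350261 to 386661 at 6 months, the highest of the 8 tissues, each on its own table's scale. The sum of 5 smooth muscle markers in aorta was 46656 to 85357 at 6 months. Adipocytes express most of the 32 genes, and the part of adipose RNA in the aorta values was not tested. Libraries that stood apart were number 4 of heart at 24 months, with a median Spearman correlation of 0.903 to the other heart libraries, and number 3 of liver at 30 months, at 0.935. In kidney, number 3 at 30 months had a proximal tubule sum of 137085, against 280992 to 321085 in the other 3 libraries of that age. Number 4 at 30 months had a T and B cell sum of 36944 in kidney, against 2620 to 10507 in the others. Results that rest on these libraries are given with and without them.

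At 30 months 27 of 254 tests on the 32 genes passed an adjusted p of 0.05, at 24 months 10 of 254, and at 15 months 0 of 254. Over all genes and tissues 12.9% of tests passed at 30 months, 6.55% at 24 months and 0.599% at 15 months. Each tissue was fitted by limma-trend on log2(value + 1) over its 16 libraries, with p-values adjusted by Benjamini-Hochberg over all genes tested in that tissue. All 3 older ages were compared with the same 4 libraries at 6 months, and p-values measure the spread between these libraries, which may be technical in part. At 15 months 42 of 254 tests had an unadjusted p under 0.05 (shares over all genes are given by tissue below), edgeR called 0 and DESeq2 called 9. Over all ages 19 of the 32 genes passed in at least 1 tissue, 10 of the 15 fatty acid genes and 9 of the 17 cholesterol genes, against 50.7% of all genes tested in at least 1 tissue. Of the 31 tested in all 8 tissues 18 passed somewhere, against 64.1% of all genes so tested. Pnpla3 was too low to test in heart, with at most 11 reads, and in kidney, with at most 14.

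Kidney had the most changes among the 32 genes, 10 of 31 at 30 months and 2 of 31 at 24 months, against 28.3% and 10.6% of all kidney genes tested. In muscle 5 of 32 passed at 30 months and 1 at 24 months, against 13.1% and 1.77% of all genes. Aorta had 4 at 30 months and 2 at 24 months, against 5.67% and 5.81%. Liver had 3 and 2, against 24.9% and 11.6%, and lung 3 and 2, against 19.4% and 15.1%. In brain 1 of 32 passed at 30 months, against 7.5%, and none at 24 months, against 0.667%. In heart 1 of 31 passed at 30 months, against 5.15%, and none at 24 months, against 4.92%. Skin had none at 30 months, against 0.72%, and 1 at 24 months, against 1.84%. Among the zero counts, limma gave 2 unadjusted p-values under 0.05 in brain at 24 months (edgeR and DESeq2 called 0), 6 in heart at 24 months (edgeR 1, DESeq2 3) and 8 in skin at 30 months (edgeR 0, DESeq2 1). Over all genes tested, 10.5%, 23.0% and 13.5% had such an unadjusted p in these comparisons, in the same order. At 15 months the share of all genes called was 0.0868% in aorta, 0.0247% in brain, 0.587% in heart and 0.48% in kidney. It was 1.23% in liver, 1.63% in lung, 0.604% in muscle and 0.173% in skin. Of the 32 genes, unadjusted p-values under 0.05 at 15 months numbered 17 in aorta, 8 in lung, 6 in muscle, 5 in kidney, 5 in skin, 1 in liver and 0 in brain and heart. DESeq2 called 4 of them in aorta, 2 in lung, 2 in skin and 1 in liver at that age. Counts at 30 months also turned on single libraries: muscle had 1 without library 1 at 6 months, 2 without number 3 and 3 without number 2 of that age or number 3 at 30 months. Lung had 0 without library 3 or 4 at 6 months, and brain had 3 without library 1 or 4 at 15 months. The share of all genes called is not given for these fits. Their counts therefore cannot show whether the 32 genes moved or the calls over all genes did. Except in aorta, the share of the 32 genes that passed at 30 months was close to or below that of all genes. Fewer cells of a type and less RNA per cell cannot be told apart in bulk tissue.

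**Figure D1:**
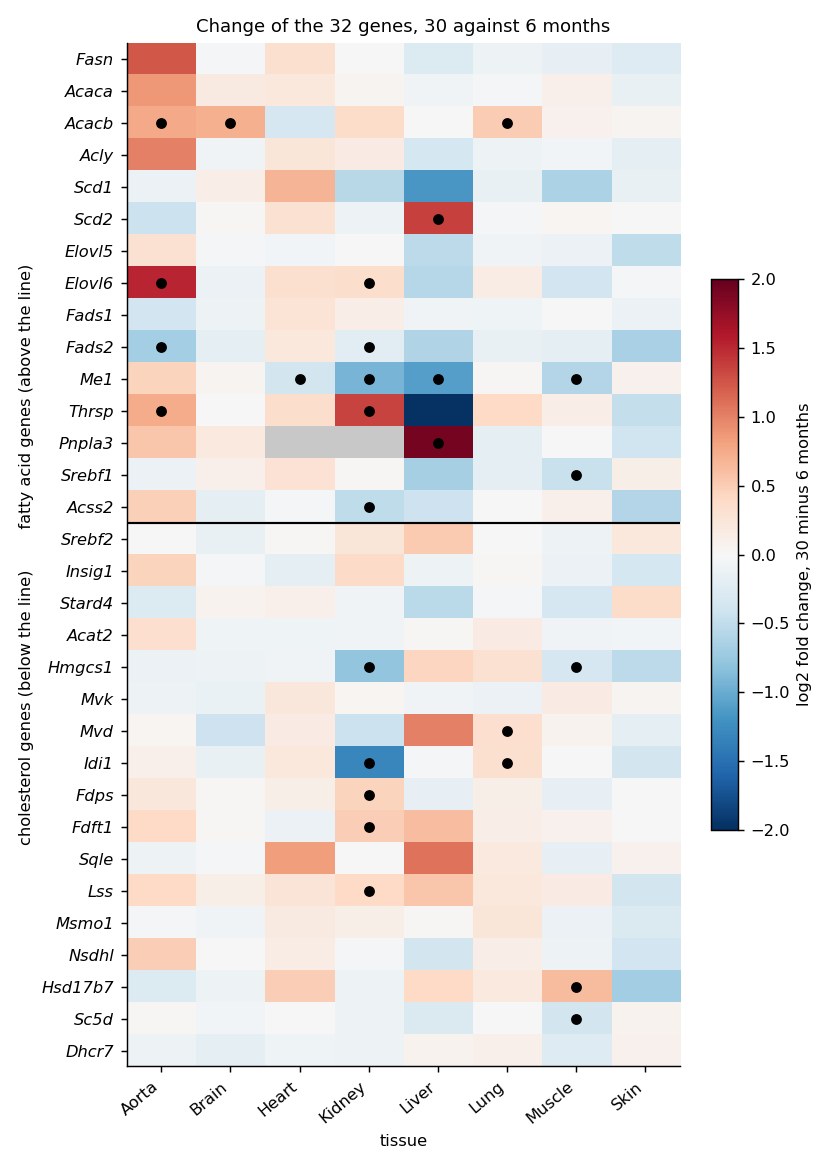
Log2 fold change of each of the 32 genes (rows) at 30 against 6 months in each tissue (columns), limma-trend, with a black dot where the adjusted p is under 0.05 and grey where a gene was not tested. Dots fall most often in Kidney, and Me1 carries dots in 4 tissues.

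Me1, cytosolic malic enzyme, which makes NADPH for lipid synthesis, was the gene that changed in most tissues. It fell at 30 months in heart, kidney, liver and muscle, 4 of 8 tissues. In muscle Me1 was 3095, 2839, 2139 and 3052 at 30 months and 4126, 4458, 4176 and 3806 at 6 months, in normalised values of that table. All 4 older muscle libraries lay below all 4 young ones, and the log2 fold change was -0.59 ± 0.10 (SE, adjusted p = 0.00126). In kidney Me1 was 6091, 6334, 2738 and 4942 at 30 months and 8999.6, 8714, 8979 and 9709 at 6 months. Again no library overlapped, library 3 was the lowest, and the log2 fold change was -0.93 ± 0.18 (SE, adjusted p = 0.00128). Without libraries 3 and 4 at 30 months it was -0.55 with an adjusted p of 0.000205. In heart Me1 was 1059, 1256, 1119 and 1240.1 at 30 months, against 1555, 1488, 1534 and 1463 at 6 months. The groups did not overlap and the log2 fold change was -0.37 ± 0.070 (SE, adjusted p = 0.00460). In liver Me1 was 1909.7, 2131, 1256 and 3998 at 30 months and 3568, 4948, 4265 and 5676 at 6 months. Library 4 at 30 months lay within the young range and the other 3 lay below it. The liver log2 fold change was -1.10 ± 0.24 (SE, adjusted p = 0.00429). The Me1 calls in these 4 tissues held when any 1 library was left out. At 24 months the log2 fold change of Me1 was -0.14 in heart, -0.47 in kidney, -0.28 in liver and -0.28 in muscle, none past the threshold with all libraries. Aorta (0.44), brain (0.06), lung (0.02) and skin (0.09) gave no call at 30 months. Muscle libraries at 30 months also had a skeletal muscle marker sum of 1631770 to 1894020, against 1857400 to 2051320 at 6 months, with 1 of 6 markers higher past the threshold (Myh1). Of 8 macrophage markers 7 were higher in muscle and kidney and 8 in heart and liver. Their sum at 30 and 6 months was 3875 to 5130.1 and 1913 to 2607 in muscle, 3078 to 8140 and 1515 to 1751 in kidney, and 3963 to 7400.2 and 2610 to 2685 in heart. Their part in the fall of Me1 was not tested.

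**Figure D2:**
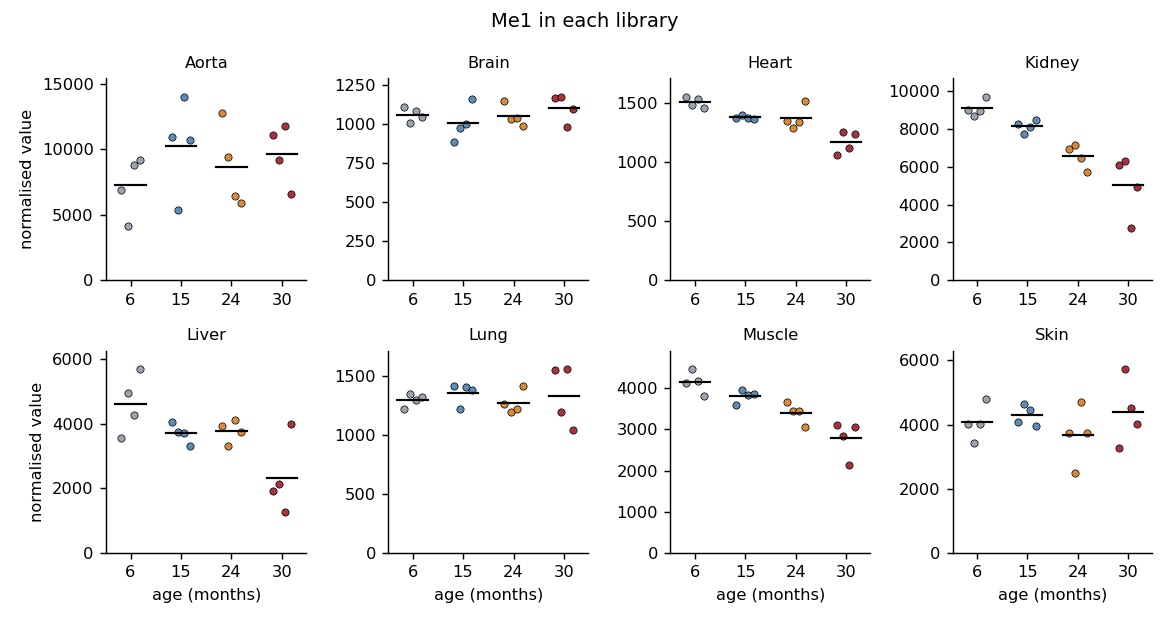
Normalised value of Me1 (vertical axis, each panel on its tissue's own scale from 0) in every library by age in months; points are libraries and bars are means of 4. At 30 months the points of Heart, Kidney and Muscle lie below all those at 6 months, and in Liver 3 of 4 do.

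The enzymes that supply acetyl-CoA were Acss2 and Acly. Acss2, which makes acetyl-CoA from acetate, fell in kidney, with 4212, 4055, 2272 and 3387 at 30 months and 4783, 4862, 4951 and 4686 at 6 months. All 4 older libraries were below the young ones, library 3 the furthest, and the log2 fold change was -0.51 ± 0.13 (SE, adjusted p = 0.00900). Without libraries 3 and 4 at 30 months it was -0.22 with an adjusted p of 0.0227. Acly was past the threshold in no tissue at any age with all libraries. Its log2 fold change at 30 months ran from -0.35 in liver to 1.0 in aorta, where the adjusted p was 0.181.

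Acacb, the carboxylase tied to the mitochondrial surface whose malonyl-CoA restrains fatty acid oxidation, was higher at 30 months in aorta, brain and lung. In brain it was 150.1, 154, 211 and 136 at 30 months and 92.2, 101, 97.8 and 101 at 6 months. The groups did not overlap, library 3 was the highest, and the log2 fold change was 0.70 ± 0.16 (SE, adjusted p = 0.00898). This call held without any 1 library. Of 8 macrophage markers 6 were higher in brain, with sums of 3481 to 4318 at 30 months and 2559 to 2621 at 6 months, and their part was not tested. In aorta Acacb was 13869.9, 11434, 14179 and 11649.5 at 30 months, against 8180.1, 5303, 7592 and 9819 at 6 months. These groups did not overlap either, and the log2 fold change was 0.75 ± 0.19 (SE, adjusted p = 0.0323). In lung Acacb was 531, 736, 469 and 560.3 at 30 months and 439, 517, 356 and 314 at 6 months. Library 3 at 30 months lay within the young range, and the log2 fold change was 0.50 ± 0.15 (SE, adjusted p = 0.0287). The aorta call was lost without library 1, 3 or 4 at 30 months or 2 or 3 at 6 months, with an adjusted p of up to 0.0985. The lung call was lost without library 2 or 4 at 30 months or 3 or 4 at 6 months, with an adjusted p of up to 0.0959. In heart Acacb ran the other way, at 1998, 2256, 2354 and 2375 at 30 months and 2739, 2953, 2818 and 2789.9 at 6 months. No heart library overlapped, yet the log2 fold change of -0.33 had an adjusted p of 0.393. Without library 4 at 24 months, whose Acacb was 1172 against 2371 to 2646 in the other 3, the adjusted p was 0.000427. The second carboxylase, Acaca, which feeds Fasn directly, passed in no tissue and ran from -0.15 in skin to 0.87 in aorta.

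Fasn itself passed nowhere with all libraries. Its log2 fold change at 30 months ran from -0.27 in liver to 1.23 in aorta, where the adjusted p was 0.145. Aorta libraries differed widely, with Fasn at 156394, 111591, 145362 and 76700.2 at 30 months and 49792, 27797, 38563 and 118812 at 6 months. The 2 groups overlapped. Elovl6, which lengthens palmitate to stearate, rose in aorta and kidney. In aorta it was 13864, 10435, 13112 and 8254 at 30 months and 4043, 2103, 3963 and 6723 at 6 months. All older libraries were above the young ones, a log2 fold change of 1.53 ± 0.37 (SE, adjusted p = 0.0267). The aorta call was lost without library 1 or 3 at 30 months or 2 or 3 at 6 months, with an adjusted p of up to 0.0833. In kidney Elovl6 was 525, 501, 537 and 444 at 30 months and 379.9, 409, 376 and 399.9 at 6 months. The kidney groups did not overlap and the log2 fold change was 0.36 ± 0.077 (SE, adjusted p = 0.00276), a call that held without any 1 library. Elovl5, an elongase of polyunsaturated chains, was lower in lung at 24 months alone, with 3630.4, 3244, 3414 and 3683 at 24 months and 3711, 4006, 4397 and 4349.5 at 6 months. Those groups did not overlap, and the log2 fold change was -0.24 ± 0.062 (SE, adjusted p = 0.0182). The call was lost without library 2 at 24 months or 3 or 4 at 6 months, with an adjusted p of up to 0.0670.

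Among the desaturases Scd2 rose in liver and passed in no other tissue. Scd1 and Scd2 both put the double bond into stearate, and Scd2 is best known as the brain form, while Scd1 is the main form of adult liver. In liver Scd2 was 122, 91.2, 75.4 and 109 at 6 months, 301, 179, 221 and 228 at 24 months and 300.1, 179, 349.9 and 218 at 30 months. Every library at 24 or 30 months was above every young one, including library 3 at 30 months, which was the highest. The log2 fold change was 1.36 ± 0.28 (SE, adjusted p = 0.00261) at 30 months and 1.21 ± 0.28 (SE, adjusted p = 0.0121) at 24 months, and both calls held without any 1 library. The 8 macrophage markers were all higher in liver at 30 months, with sums of 15304, 23098, 23377 and 7643, against 3417, 3198, 3420 and 4863 at 6 months. Of 8 T and B cell markers 7 were higher too, with sums of 1444 to 2269 at 30 months and 104 to 210.3 at 6 months. The part of both lists in the rise of Scd2 was not tested. Scd1 passed in no tissue, and in liver it was 116338, 125846, 11143 and 174068 at 30 months and 167636, 194614, 150325 and 143022 at 6 months. Library 3 was the lowest, 2 other older libraries lay below the young range, and the log2 fold change of -1.16 had an adjusted p of 0.166. Near-identical copies in the Scd family can exchange reads.

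Fads2, the first desaturase of polyunsaturated chains, fell in aorta and kidney. In aorta it was 319, 314, 333 and 316 at 30 months and 556, 568, 494 and 449.6 at 6 months. No library overlapped, and the log2 fold change was -0.68 ± 0.16 (SE, adjusted p = 0.0253). At 24 months it was -0.58 ± 0.16 (SE, adjusted p = 0.0482), a call lost without any 1 of 12 of the 16 libraries. The call at 30 months was lost without any 1 library at 30 months or number 2 at 6 months, with an adjusted p of up to 0.0746. In kidney Fads2 was 2882, 2738, 2199 and 2404 at 30 months, against 3115, 2918, 2997 and 2925 at 6 months. The older libraries were lower without overlap, with a log2 fold change of -0.23 ± 0.074 (SE, adjusted p = 0.0269). Without library 3 at 30 months the adjusted p was 0.0792, and without libraries 3 and 4 it was 0.368. Library 4 at 30 months and libraries 1 and 3 at 6 months each also decided this call. Fads1, the second desaturase, passed nowhere with all libraries and ran from -0.38 in aorta to 0.28 in heart.

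Of the regulators of the fatty acid arm, Srebf1, which encodes SREBP1, fell in muscle. It was 671, 594, 527 and 594 at 30 months and 953, 807, 839.8 and 662 at 6 months. The highest older library lay just inside the young range, and the log2 fold change was -0.44 ± 0.11 (SE, adjusted p = 0.0141). At 24 months Srebf1 was 581, 550.4, 584 and 443 in muscle, without overlap, and the log2 fold change was -0.59 ± 0.11 (SE, adjusted p = 0.0112). Both calls rest on young libraries: the one at 30 months had an adjusted p of 0.0511 without library 1 at 6 months, and the one at 24 months had 0.0502 without library 3 at 6 months. In the other 7 tissues Srebf1 did not pass, from -0.66 in liver to 0.29 in heart at 30 months.

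Thrsp, or Spot 14, a small protein that promotes lipogenesis, rose in kidney and aorta. In kidney it was low, 139, 94.4, 75.3 and 179 at 30 months and 34.5, 50.2, 55.8 and 41.5 at 6 months, on 78 to 170 reads per library at 30 months and 36 to 44 at 6 months. The groups did not overlap and the log2 fold change was 1.35 ± 0.29 (SE, adjusted p = 0.00277), a call that held without any 1 library. Of 12 white adipocyte markers 5 were higher (Cfd, Cidec, Lipe, Retn and Adipoq) and 1 lower (Lpl) in kidney. Their sums were 20955 to 39748 at 30 months and 28096 to 40971 at 6 months. Of 7 brown adipocyte markers, 5 of them tested, 2 were higher (Cidea and Dio2) and 0 lower. Their sums were 930 to 1422 at 30 months and 838 to 991 at 6 months. The part of both lists was not tested. In aorta Thrsp was 42446, 32239, 40111 and 33867 at 30 months, against 24884, 19074, 20089.9 and 25114 at 6 months. There was no overlap and the log2 fold change was 0.74 ± 0.19 (SE, adjusted p = 0.0354). The aorta call was lost without library 1, 3 or 4 at 30 months or 2 or 3 at 6 months, with an adjusted p of up to 0.102. In liver Thrsp was 3099, 3166, 123 and 8207 at 30 months and 4471, 7074, 6123 and 12379 at 6 months, and library 3 alone was far below the rest. The liver log2 fold change of -1.98 had an adjusted p of 0.105.

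Pnpla3, a lipid droplet hydrolase and SREBP1 target, rose in liver from very few reads. Its liver values were 3.60, 6.75, 3.21 and 3.97 at 6 months, 19.4, 9.24, 12.6 and 24.5 at 24 months and 14.3, 27.9, 10.6 and 28.9 at 30 months. All 4 libraries of each later age were higher, on 8, 18, 8 and 46 reads at 30 months and 2, 4, 2 and 2 reads at 6 months. The log2 fold change was 1.92 ± 0.44 (SE, adjusted p = 0.00521) at 30 months and 1.65 ± 0.44 (SE, adjusted p = 0.0240) at 24 months, on a scale where the added 1 shrinks changes of low genes. The call at 30 months held without any 1 library, and that at 24 months was lost without library 1 or 4 at 24 months or 1, 3 or 4 at 6 months. At 15 months Pnpla3 in liver was 7.54, 2.55, 6.20 and 3.81, on 31, 2, 3 and 6 reads. Library 1 of that age held 82.8 M reads. In aorta, where the gene was highest, Pnpla3 changed by 0.55 with an adjusted p of 0.267.

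At the head of the cholesterol arm, Hmgcs1, which condenses acetyl-CoA units into HMG-CoA, fell in kidney and muscle at 30 months and in skin at 24 months. In kidney it was 5699.8, 5804, 2977 and 4702 at 30 months and 6823, 7725, 8015 and 9649.9 at 6 months. The groups did not overlap and the log2 fold change was -0.78 ± 0.16 (SE, adjusted p = 0.00210). In muscle it was 436, 396, 313 and 384 at 30 months, against 537, 449, 484 and 447 at 6 months. Again the older libraries were all lower, library 3 the lowest, with a log2 fold change of -0.33 ± 0.10 (SE, adjusted p = 0.0438). In skin it was 4000.1, 3689.6, 4308 and 4108 at 24 months and 6178, 6892, 5247 and 5655 at 6 months, a log2 fold change of -0.57 ± 0.14 (SE, adjusted p = 0.0473) without overlap. At 30 months skin libraries stood at 3955, 4353, 3954 and 4396, also without overlap, with an adjusted p of 0.0975. Keratinocyte marker sums in skin were 83227 to 119563 at 24 months and 96478 to 237088 at 6 months. White adipocyte sums were 16819 to 38433 and 10976 to 43034, and hepatocyte sums 724 to 1526 and 1426 to 15606, at the same ages. No marker of these 3 lists passed in skin at 24 months, and their part was not tested. The kidney call held without any 1 library. The muscle call was lost without any 1 of 9 libraries, among them number 3 at 30 months and all 4 at 6 months (adjusted p up to 0.130), and the skin call without any 1 of 13 (up to 0.134).

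Idi1, which isomerises isopentenyl diphosphate, had the strongest fall among the 32 genes in kidney. It was 2137, 2171, 2471 and 2203 at 6 months, 1239, 1216, 1040.1 and 778 at 24 months and 1316, 1201, 415 and 1028 at 30 months. All libraries at 24 and 30 months were lower, number 3 at 30 months the furthest. The log2 fold change was -1.31 ± 0.26 (SE, adjusted p = 0.00147) at 30 months and -1.09 ± 0.26 (SE, adjusted p = 0.0120) at 24 months, and both calls held without any 1 library. Without libraries 3 and 4 at 30 months it was -0.83 with an adjusted p of 0.00131. In lung Idi1 was higher, 1435, 1719.5, 1391 and 1262 at 30 months and 1248, 1196, 1141 and 1052 at 6 months. The lung groups did not overlap, the log2 fold change was 0.32 ± 0.11 (SE, adjusted p = 0.0448), and the call was lost without any 1 of 11 of the 16 libraries (adjusted p up to 0.133). Idi2, a near copy of Idi1, can exchange reads with it.

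Mvd, which decarboxylates the mevalonate product, rose in lung, with 249, 272, 214 and 269.8 at 30 months and 205, 196, 196 and 197 at 6 months. All older libraries were above the young ones, with a log2 fold change of 0.33 ± 0.10 (SE, adjusted p = 0.0307). This call was lost without library 1, 2 or 4 at 30 months or 2, 3 or 4 at 6 months, with an adjusted p of up to 0.0922. Fdps, farnesyl diphosphate synthase, rose in kidney, with 429, 314, 237 and 302 at 30 months and 247, 231, 253 and 195 at 6 months. Library 3 at 30 months lay within the young range, and the log2 fold change was 0.44 ± 0.14 (SE, adjusted p = 0.0310). Without library 3 it was 0.58 with an adjusted p of 0.00423, while leaving out number 1 or 2 at 30 months or 2 or 4 at 6 months ended the call (adjusted p up to 0.0988). In lung 4 of 8 alveolar type 2 markers were lower, with sums of 227727 to 308062 at 30 months and 334120 to 369007 at 6 months, and 5 of 8 macrophage and 5 of 8 T and B cell markers were higher. All 5 smooth muscle markers were lower there, with sums of 8112 to 11837 at 30 months and 14044 to 16602 at 6 months. At 24 months in lung 7 of 8 macrophage and 5 of 8 T and B cell markers were higher, 5 of 5 smooth muscle markers were lower, and 0 of 8 alveolar type 2 markers passed. The part of these lists in the lung changes, Elovl5 and Sc5d at 24 months included, was not tested. Mvk, mevalonate kinase, passed nowhere and stayed between -0.13 and 0.23. Acat2, the cytosolic thiolase that opens the pathway, rose in aorta at 24 months, with 3559.5, 2647, 3003 and 3146 at 24 months and 2262, 1948, 2113 and 2185 at 6 months. No library overlapped, and the log2 fold change of 0.53 ± 0.10 (SE, adjusted p = 0.0104) held without any 1 library, while at 30 months it was 0.34 with an adjusted p of 0.0669. Acat3 is a near copy that can exchange reads with it.

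In the sterol steps of the pathway, Fdft1 (squalene synthase) and Lss (lanosterol synthase) rose in kidney while Idi1 and Hmgcs1 fell there. Fdft1 was 587, 497, 449 and 531 at 30 months and 399, 337, 377 and 354 at 6 months, a log2 fold change of 0.49 ± 0.13 (SE, adjusted p = 0.00857). Lss was 522, 382, 402 and 414 at 30 months, against 339, 311, 317 and 328 at 6 months, a log2 fold change of 0.40 ± 0.094 (SE, adjusted p = 0.00534). Neither gene's groups overlapped, and both calls held without any 1 library. At 24 months Lss stood at 422, 415, 354 and 410.0, a log2 fold change of 0.30 ± 0.094 (SE, adjusted p = 0.0490) that was lost without any 1 of 11 of the 16 libraries (adjusted p up to 0.115). Sc5d, a late sterol desaturase, fell in muscle, with 420.3, 431, 313 and 397 at 30 months and 543, 490.0, 526 and 441 at 6 months. The older libraries were all lower, with a log2 fold change of -0.36 ± 0.092 (SE, adjusted p = 0.0170), a call lost without library 1 or 3 at 6 months (adjusted p up to 0.0569). In lung Sc5d was lower at 24 months, with 814, 889.7, 845 and 876 at 24 months and 999, 1021, 942 and 970.4 at 6 months, a log2 fold change of -0.20 ± 0.057 (SE, adjusted p = 0.0267) without overlap. It was lost without library 1 or 3 at 24 months or 2 or 4 at 6 months (adjusted p up to 0.0797). Hsd17b7, the keto reductase of sterol demethylation, rose in muscle, with 228, 162, 254 and 289 at 30 months and 113, 165, 145 and 169.6 at 6 months. Library 2 at 30 months lay within the young range and the log2 fold change was 0.64 ± 0.19 (SE, adjusted p = 0.0381). Leaving out number 1, 3 or 4 at 30 months or 1, 2 or 3 at 6 months ended this call (adjusted p up to 0.118). In skin it was 1452, 2463, 1578 and 1255 at 30 months and 2955, 2870.0, 2338 and 2504 at 6 months, 3 of 4 below the young range, and the log2 fold change of -0.70 had an adjusted p of 0.120.

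The remaining sterol genes and sterol sensors passed in no tissue at any age with all libraries. At 30 months Sqle (squalene epoxidase) ran from -0.17 in muscle to 1.08 in liver, and Msmo1 (methylsterol monooxygenase) from -0.29 in skin to 0.24 in lung. Nsdhl, which acts with Msmo1, ran from -0.38 in skin to 0.49 in aorta, and Dhcr7, which makes the last double-bond reduction, from -0.26 in muscle to 0.10 in lung. Srebf2, which encodes SREBP2, ran from -0.14 in brain to 0.53 in liver. Insig1, the retention protein, ran from -0.36 in skin to 0.44 in aorta, and Stard4, a cholesterol carrier of the cytosol, from -0.54 in liver to 0.37 in skin. In brain the 17 cholesterol genes lay between -0.41 and 0.12 at 30 months and Srebf2 was 3682, 3827, 3429 and 3957 at 30 months, against 3732, 4001, 4059 and 4690.1 at 6 months. The brain groups overlapped, and 0 of 17 cholesterol genes passed there by limma, with 2 at an unadjusted p under 0.05, 1 called by edgeR and 1 by DESeq2. Over all brain genes tested 21.2% had an unadjusted p under 0.05.

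**Figure D3:**
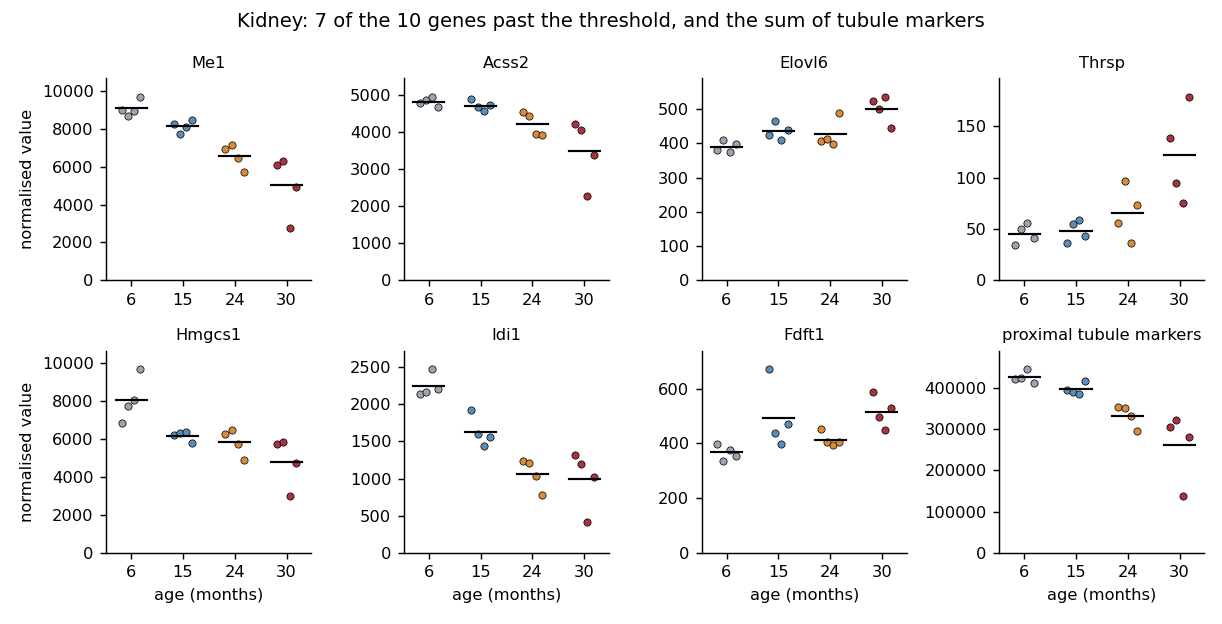
Normalised values (vertical axes from 0) of 7 of the genes past the threshold in Kidney at 30 months and the summed value of 6 proximal tubule markers, by age in months; points are libraries and bars are means of 4. Me1, Acss2, Hmgcs1 and Idi1 lie lower at 30 months, Elovl6, Thrsp and Fdft1 higher, and 1 library at 30 months is lowest for Me1, Acss2, Hmgcs1, Idi1 and the tubule sum.

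In kidney 5 of the 32 genes rose (Elovl6, Thrsp, Fdft1, Lss and Fdps) and 5 fell (Me1, Acss2, Fads2, Hmgcs1 and Idi1). The proximal tubule sum was 306361, 321085, 137085 and 280992 at 30 months, against 422371, 423717, 444894 and 410860 at 6 months, with 3 of 6 markers lower past the threshold. Library 3 at 30 months was the lowest of all 16 kidney libraries for 20 of 31 genes. Without it 13 of 31 passed at 30 months, against 24.4% of all genes tested. These included Fasn (0.25), Acly (0.21), Fads1 (0.22) and Srebf2 (0.32), which had not passed before, and no longer Fads2. Without both libraries 3 and 4 at 30 months 15 of 31 passed, against 17.2% of all genes, adding Sqle (0.37) and Msmo1 (0.48). In that fit 11 genes were higher and 4 lower (Me1, Acss2, Hmgcs1 and Idi1). The cholesterol genes had a median of 0.32 there with 13 of 17 positive, against -0.03 and 7 of 17 with all libraries. Library 3 was the lowest for most of these same genes, so the counts at 30 months without it are no test of the 32 genes. At 24 months, where library 3 at 30 months enters through the shared spread alone, 7 of 31 passed without it, against 16.1% of all genes. The 5 added were Me1 (-0.47), Hmgcs1 (-0.46), Mvd (-0.29), Acss2 (-0.20) and Acly (0.21). With all libraries 3 of 6 tubule markers were lower at 30 months, while 5 of the 32 genes rose and 5 fell. The part of the tubule markers was not tested.

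**Figure D4:**
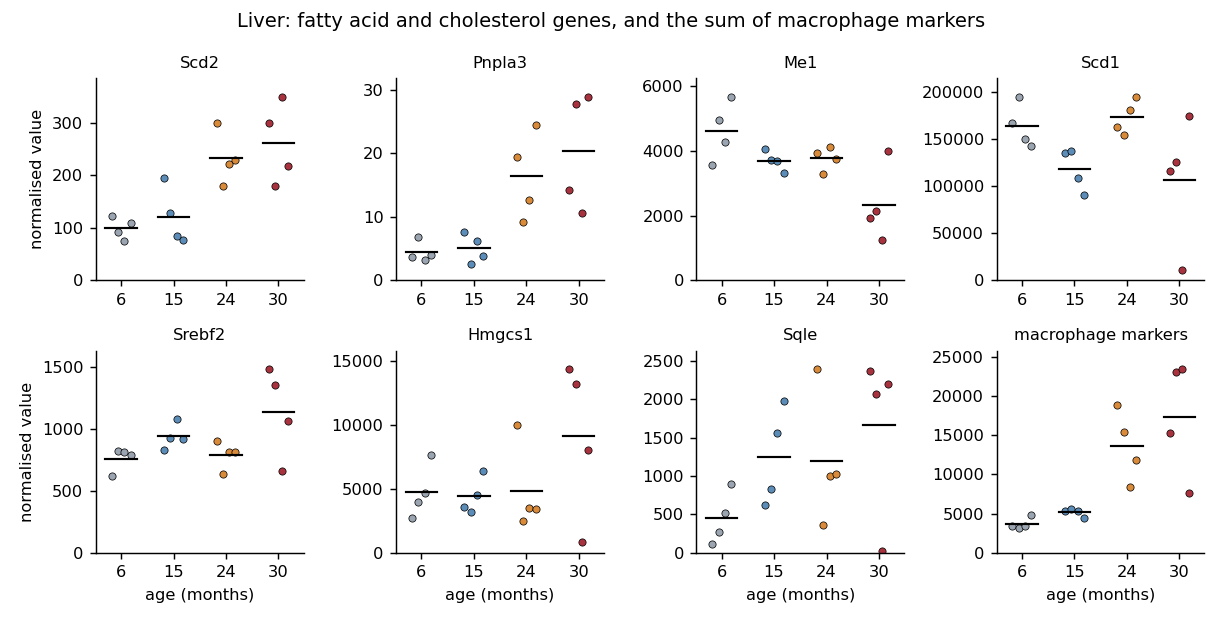
Normalised values (vertical axes from 0) of 7 genes in Liver and the summed value of 8 macrophage markers, by age in months; points are libraries and bars are means of 4. Scd2 lies above all young libraries at 24 and 30 months, while for Srebf2, Hmgcs1 and Sqle 3 libraries at 30 months are above the young ones and 1 is near or below the lowest of them.

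In liver the count of cholesterol genes past the threshold turned on 1 library. Library 3 at 30 months was the lowest of the 16 for 26 of the 32 genes. The mean log2 value of the 17 cholesterol genes relative to the mean at 6 months was 1.08, 0.97, -2.18 and 0.87 in the 4 libraries at 30 months. At 6 months it was -0.77, -0.11, 0.17 and 0.71. The hepatocyte marker sum was 1813550 in library 3, against 2188920 to 3311770 in the other 3 at 30 months and 2082010 to 2431700 at 6 months. With all libraries 0 of 17 cholesterol genes passed by limma at 30 months, 1 of 17 at an unadjusted p under 0.05, and edgeR and DESeq2 called 1 each. Over all liver genes tested 36.7% had an unadjusted p under 0.05. Without library 3, 8 of 17 passed and all 17 had positive log2 fold changes with a median of 0.88. Over both arms 11 of 32 passed, against 19.8% of all genes tested. Library 3 stood apart over all genes, with a median Spearman correlation of 0.935, but was also the lowest for most of these same genes. The counts without it are therefore no test of the 32 genes. Sqle was 2369, 2073, 25.2 and 2204 at 30 months and 113, 268, 517 and 892 at 6 months, on 1326, 1340, 19 and 3505 reads at 30 months and 63, 159, 322 and 449 at 6 months. Libraries 1, 2 and 4 lay above every young library and number 3 below them all. Without number 3 the log2 fold change was 2.68 with an adjusted p of 0.00830, and with it 1.08 with 0.532. Hmgcs1 was 14318, 13188, 835 and 8045 at 30 months, against 2752, 3938, 4654 and 7670.4 at 6 months. The same 3 libraries were the highest, and without number 3 the log2 fold change was 1.37 with an adjusted p of 0.0290. Srebf2 was 1481, 1359, 663 and 1061 at 30 months and 620.2, 821, 817 and 787 at 6 months. Without number 3 it was 0.77 with an adjusted p of 0.00220. Mvd (1.71), Fdft1 (1.04), Lss (1.19), Msmo1 (1.14) and Hsd17b7 (0.86) also passed in that fit. The 3 fatty acid genes that passed with all libraries (Scd2, Me1 and Pnpla3) passed without it as well. Leaving out library 4 at 30 months instead gave 5 of 32, against 28.6% of all genes, with Srebf1 (-0.94) and Thrsp (-2.71) lower and no cholesterol gene past the threshold.

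In aorta most of the 32 genes had positive log2 fold changes at 15 months, though 0 of 32 passed with all libraries. At 15 months 12 of 15 had a positive log2 fold change with a median of 0.67, and 10 had an unadjusted p under 0.05. Of the 17 cholesterol genes 16 were positive, with a median of 0.32 and 7 unadjusted p-values under 0.05; over all genes tested 51.0% were positive and the median was 0.01. edgeR called 0 of 32 there and DESeq2 4. Scd1 was 682243, 299187, 862399 and 681138 at 15 months and 175952, 126776, 177463 and 348930.0 at 6 months. Library 2 at 15 months lay within the young range and the other 3 far above it. Without library 2 at 15 months 8 of 32 passed, against 1.13% of all genes tested: Fasn (1.95), Scd1 (1.94), Elovl6 (1.74), Acly (1.63), Acaca (1.56), Insig1 (0.99), Nsdhl (0.91) and Acacb (0.81). Without library 4 at 6 months 1 passed, Scd1, and the share of all genes called is not given for that fit. Library 2 at 15 months was singled out by its values of these same genes. Its median Spearman correlation to the other aorta libraries was 0.977. Leaving out 1 library at a time gave 0 to 8 calls, so the largest count is no test of the 32 genes. At 24 months the fatty acid median was -0.06, and at 30 months it was 0.48 with 10 of 15 positive. The calls in aorta at 30 months numbered 0 without library 1 or 3 at that age or number 2 at 6 months. The share of all genes called is not given beside those counts. The white adipocyte sum was 309052 to 346968 at 15 months, and the brown adipocyte sum was 118272 to 156160 at 30 months, against 57217 to 138756 at 6 months. The part of adipose tissue left on the vessel was not tested.

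In heart single libraries stood out in the fatty acid genes. Scd1 was 318, 3186, 319 and 1777 at 24 months and 229, 327, 199.9 and 259 at 6 months. Libraries 2 and 4 at 24 months stood far above the rest, and the adjusted p was 0.0852. The sum of 12 white adipocyte markers in heart was 55255 to 76880 at 24 months and 58446 to 64409 at 6 months. The 9 of them tested had a median log2 fold change of 1.59 at 24 months and 0 passed. Their part was not tested. Without library 4 at 24 months, 4 of 31 genes passed at 30 months, against 15.4% of all genes tested: Me1 (-0.37), Acacb (-0.33), Hsd17b7 (0.49) and Fads1 (0.28).

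Set side by side by class, the fatty acid and the cholesterol genes had different medians in some tissues at 30 months. In aorta the median log2 fold change was 0.48 for the fatty acid genes and 0.03 for the cholesterol genes, in heart 0.26 and 0.11, and in liver -0.41 and 0.02. In kidney it was 0.01 and -0.03, in brain 0.01 and -0.07, in lung -0.07 and 0.13, in muscle -0.06 and -0.11, and in skin -0.15 and -0.06. The median over all genes tested was -0.02 in liver and closer to 0 in the other tissues at that age. Without library 3 at 30 months the liver medians were 0.26 for the fatty acid genes and 0.88 for the cholesterol genes, so the order of both classes was kept and the sign of the fatty acid median was not. Of the 17 cholesterol genes, 15 were positive in lung and 6 in skin at 30 months. Of the 15 fatty acid genes, 4 were positive in lung and 3 in skin at that age. Over all genes tested 49.6% were positive in lung and 50.2% in skin. Lung cholesterol genes ran the other way earlier. At 15 months 1 of 17 was positive with a median of -0.20, against 49.8% of all genes. At 24 months 6 of 17 were positive with a median of -0.03, against 48.3% of all genes. These medians carry no test.

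**Figure D5:**
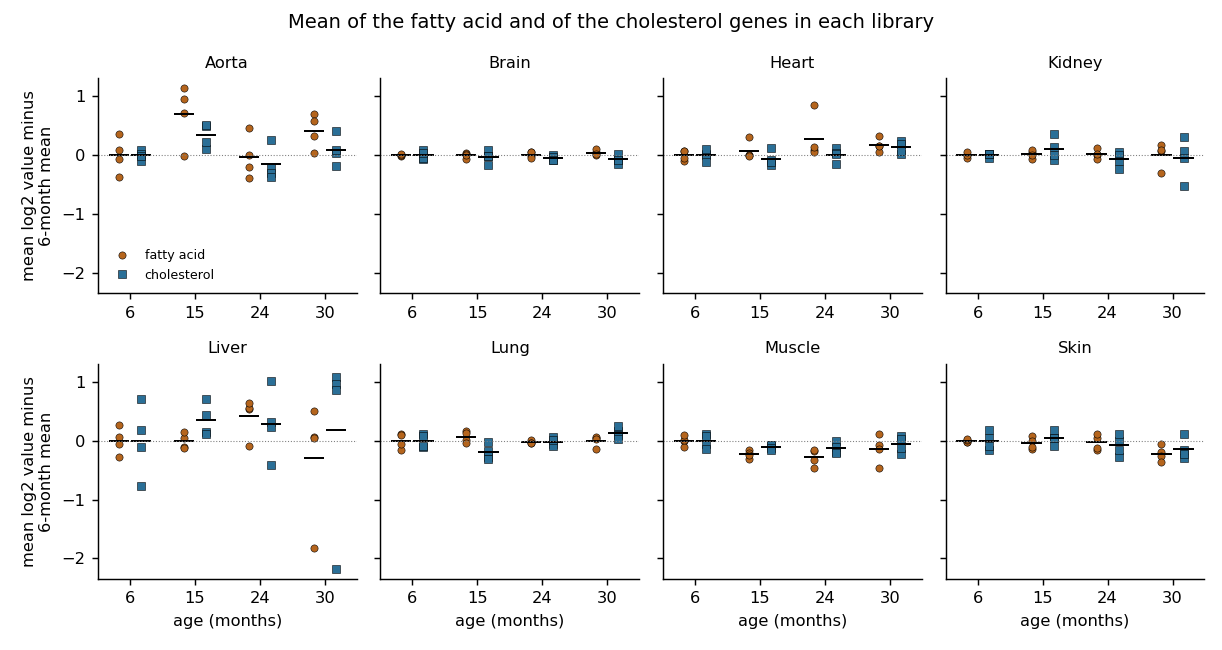
Mean log2 value of the tested fatty acid genes and of the 17 cholesterol genes in each library relative to their mean at 6 months (vertical axis), by age in months and tissue. In Liver at 30 months 1 library lies near -2 for both classes and the cholesterol means of the other 3 lie near 1.

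The change from 6 to 30 months was tested for a difference between tissues in 1 fit over the libraries of all 8 tissues. It differed for 9 of the 32 genes, against 32.2% of all 21469 genes tested: Me1, Scd2, Thrsp, Hsd17b7, Acacb, Elovl6, Acly, Pnpla3 and Srebf2 (adjusted p from 6.02e-06 for Me1 to 0.0448 for Srebf2). Without library 3 of liver at 30 months, an alternative added after the data were seen, it differed for 20 of the 32, against 30.0% of all genes. In that fit Hmgcs1 (adjusted p = 2.07e-07), Idi1 (4.84e-06) and Sqle (2.09e-05) were among those added. The left-out library was the lowest of its tissue for most of these same genes. Counts without it, here and below, are therefore no test of the 32 genes. The fit over all tissues shared a single spread per gene. Fitted within each tissue, the median SE of the 32 genes at 30 months ran from 0.067 in brain to 0.467 in liver. Its p-values may therefore be too small for tissues with a wide spread, such as liver and aorta, and too large for brain and lung. Each tissue was then set against the mean change of the other 7. In liver 7 genes differed, against 19.4% of all genes: Scd2 by 1.39, Pnpla3 by 1.84, Mvd by 1.08, Srebf2 by 0.49, Srebf1 by -0.63, Me1 by -0.91 and Thrsp by -2.33 on the log2 scale. Without library 3 there were 18, against 13.7% of all genes, of which 14 were cholesterol genes, all with positive differences (Sqle 2.56, Hmgcs1 1.60, Idi1 1.42). In aorta 5 differed, against 10.7%, all higher: Elovl6 by 1.57, Fasn by 1.31, Acly by 1.05, Me1 by 0.84 and Acaca by 0.83. Without the liver library there were 8 in aorta, against 10.8%.

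In kidney 2 differed from the other tissues, Me1 by -0.72 and Thrsp by 1.46, against 5.02% of all genes. Without the liver library there were 4, against 5.67%, with Idi1 (-1.50) and Hmgcs1 (-0.86) added. Without libraries 3 and 4 of kidney at 30 months there were 0, against 1.15%, with 1 unadjusted p under 0.05. In skin Hsd17b7 differed by -0.88, 1 of 32 against 6.24%, and without the liver library 4 did, against 6.5%, with Lss (-0.76), Acss2 (-0.61) and Elovl5 (-0.51) added. In heart none differed, against 1.02%, and without the liver library 1 did, against 1.09% (Acacb, -0.74). None differed in brain against 0.708%, lung against 3.27% or muscle against 3.6%. limma gave 1 unadjusted p under 0.05 in brain, 0 in lung, 1 in muscle and 4 in heart; edgeR and DESeq2 were not run against the other 7 tissues. A gene's change past the threshold in 1 tissue and not in another is called different only where it is named in this test.

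Levels at 6 months placed the genes in different tissues, in RPM (reads scaled to a megaread total) with each tissue on its own library totals. Fasn stood at 3400 ± 2233 in aorta and 12.5 ± 2.34 in heart (SD, n = 4), the highest and the lowest of the 8 tissues. Scd1 was 12066 ± 5212 in aorta, 7679 ± 1262 in liver and 2831 ± 322 in skin, and lowest in heart at 14.7 ± 3.5. Aorta and liver do not differ beyond their spread. Scd2 was highest in brain, 1806 ± 36.7, followed by lung at 847 ± 56.0, and lowest in liver at 4.65 ± 0.93. Me1 was highest in kidney, 534 ± 31.6, and aorta, 428 ± 138, which do not differ beyond their spread, and lowest in brain at 61.0 ± 2.65. Msmo1 was highest in skin, 1210 ± 258, and low in heart at 4.50 ± 0.32 and muscle at 5.12 ± 1.08, which do not differ beyond their spread. Pnpla3 was 77.3 ± 20.4 in aorta and 0.21 ± 0.080 in liver, and kidney (0.31 ± 0.23) and heart (0.32 ± 0.20) do not differ from liver beyond their spread. The aorta libraries at 6 months had white adipocyte marker sums of 350261 to 386661, against 46656 to 85357 for smooth muscle markers. The part of adipose RNA in the aorta levels was not tested.

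Other genes of both arms were counted in the same fits at 30 months. Beside these counts stand the shares of all genes that passed in either direction, which were 5.67% in aorta, 24.9% in liver, 28.3% in kidney, 19.4% in lung, 13.1% in muscle, 7.5% in brain, 5.15% in heart and 0.72% in skin. Of the other fatty acid genes, 6 of 27 rose and none fell in aorta, and none rose and 8 of 27 fell in liver. In kidney 0 of 26 rose and 7 fell, in lung 3 and 4 of 27, in muscle 2 and 2 of 25, in brain 0 and 2 of 27, in heart 0 and 1 of 25, and in skin 0 of 28. The aorta genes included Elovl3 (3.96), an elongase of brown fat and sebaceous glands that is also on both of those marker lists, Acsl5 (1.76), an acyl-CoA synthetase, and Hsd17b12 (0.76), a keto reductase of chain elongation. The liver genes included Mlxipl (-0.66), which encodes the carbohydrate response factor ChREBP, and Agpat2 (-0.82), an acyltransferase of triglyceride synthesis. Of the other cholesterol genes, 1 of 22 rose and 8 fell in kidney, and 4 of 22 rose and 2 fell in liver. Kidney genes that fell included Tmem41b (-0.36) and Ebp (-0.37), the sterol isomerase. Cyp51, which demethylates lanosterol, fell in kidney by 1.26 on the log2 scale and was chosen for mention after its value was seen. Soat1, which esterifies cholesterol, and Abcg1, which exports it, rose in liver by 1.72 and 1.41, beside the macrophage markers. In brain 2 of 23 rose and 1 fell, in heart 1 and 0 of 22, in lung 1 and 2 of 22, in skin 0 and 1 of 22, and in muscle 0 of 23.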

How the data were processed

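RNA was extracted with RNAiso Plus from frozen, pulverised tissue and sequenced after the Illumina Stranded mRNA Prep, per the labels' protocols. FastQC, STAR, RSEM, DESeq2 and the build GRCm39 are named in the submitters' processing notes, without versions. The authors deposited 8 tables of normalised signal, 1 per tissue, each with 55285 gene symbols. From the steps in the deposited signal values, whole reads were recovered (tolerance 0.01 reads), giving 7.65 M to 82.8 M reads (megareads) per library, median 15.6 M. Low totals limit low genes such as Pnpla3.

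Values were tested by limma-trend (limma 3.58.1, R 4.3.3) on log2(value + 1) after filterByExpr with a minimum count of 10, with the 16 libraries of a tissue in 1 fit, ages 15, 24 and 30 months against 6 months, and Benjamini-Hochberg adjustment over all genes tested in the tissue. Differences between tissues came from 1 limma-trend fit over the libraries of all tissues. edgeR 4.0.16 (quasi-likelihood, TMM) and DESeq2 1.42.0 on the recovered reads, other pseudocounts (0.1 and 5), TMM scaling, no filter, 2 ages alone, a replicate block and leaving out each library were alternatives. The procedure was tested on simulated data. Python 3.11.15, pandas 2.3.3, numpy 2.4.6 and matplotlib 3.10.9 were also used.

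The 32 genes and the lists of other pathway genes and cell type markers were chosen with earlier results of these data known. Named were all of the 32 that passed at 30 months in a tissue (at most 12) or at other ages (at most 8), 8 genes in any tissue (Fasn, Acaca, Scd1, Srebf1, Hmgcs1, Sqle, Insig1 and Srebf2), and up to 4 other pathway genes per tissue by adjusted p; values of Acly, Acacb in heart, Thrsp in liver, Hsd17b7 in skin and ranges of the remaining genes were added after they were seen. Near-identical copies (Acat2 and Acat3, the Scd family, Idi1 and Idi2) could share reads. A result on another gene of the cholesterol list is not reported here.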

Additional observations from a re-analysis of the deposited data

Results flagged for a closer look

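Single libraries stood apart from the other 3 of their group in 10 of 152 groups (6.58%), where the gap to the nearest library, divided by the group's range, passed Dixon's 95% critical value; chance flags about 1 in 20 groups. For genes, normalised values were 422, 415, 354 and 410.0 for Lss in kidney at 24 months (ratio 0.832, library 3 low). Mvd in lung at 6 months had 205, 196, 196 and 197 (0.864, library 1 high). Srebf1 in muscle at 15 months had 689, 619, 616 and 606 (0.839, library 1 high).

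The other 7 were means of the log2 values of an arm relative to 6 months. For the fatty acid genes they were 0.31, -0.0030, -0.0040 and -0.0086 in heart at 15 months (ratio 0.982) and 0.090, 0.84, 0.055 and 0.14 in heart at 24 months (0.890), both with a high library. In liver at 24 months they were 0.54, -0.086, 0.56 and 0.65 (0.852, library 2 low). In lung they were -0.026, 0.013, -0.032 and -0.033 at 24 months (0.834, library 2 high) and 0.051, -0.14, 0.057 and 0.030 at 30 months (0.864, library 2 low). For the cholesterol genes they were 0.017, -0.040, 0.012 and 0.012 in kidney at 6 months (0.913, library 2 low) and 1.08, 0.97, -2.18 and 0.87 in liver at 30 months (0.933, library 3 low).

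By limma's F test, with a single spread per gene shared by all tissues, 9 genes changed unequally in the 8 tissues at 30 against 6 months. Adjusted p was 6.02e-06 for Me1, 0.000155 for Scd2, 0.000546 for Thrsp, 0.00243 for Hsd17b7 and 0.0131 for Acacb. It was 0.0256 for Elovl6, 0.0314 for Acly, 0.0343 for Pnpla3 and 0.0448 for Srebf2.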

How the results depend on the processing

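No call on a named gene reversed its direction under any alternative. Counts of genes past the threshold moved by over 1.5 times as follows, and the cause was not tested. Except for the test between tissues, the share of all genes called is not set beside these counts. They therefore cannot show whether the genes of both arms moved or the calls over all genes did. DESeq2 gave 4 in aorta at 15 months (against 0), 4 in aorta at 24 months (2), 4 in brain at 30 months (1), 3 in heart at 24 months (0), 3 in heart at 30 months (1) and 5 in kidney at 24 months (2). It also gave 1 in liver at 15 months (0), 2 in lung at 15 months (0), 4 in lung at 24 months (2), and 2, 3 and 1 in skin at 15, 24 and 30 months (0, 1 and 0). edgeR gave 1 in aorta, 1 in heart and 1 in kidney at 24 months, and 4 in brain and 2 in heart at 30 months. With 2 ages alone there were 3 in kidney and 1 in liver at 15 months, 1 in aorta, 7 in kidney, 2 in muscle and 0 in skin at 24 months, and 5 in heart, 0 in lung and 1 in muscle at 30 months. Without the filter there were 1 in aorta, 1 in kidney and 0 in skin at 24 months, and 2 in aorta and 3 in muscle at 30 months. TMM scaling gave 1 in kidney at 24 months and 2 in brain at 30 months, a pseudocount of 5 gave 2 in brain at 30 months, and a pseudocount of 0.1 moved none. Without kidney libraries 3 and 4 of 30 months there were 1 at 15 months and 8 at 24 months. The test between tissues gave 20 without liver library 3 of 30 months. It called 30.0% of all genes in that fit, against 32.2% with all libraries.

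Leaving out 1 library at a time gave ranges at 15, 24 and 30 months of 0 to 8, 1 to 5 and 0 to 5 in aorta, 0 to 0, 0 to 0 and 1 to 3 in brain, 0 to 0, 0 to 2 and 1 to 4 in heart, and 0 to 0, 1 to 7 and 9 to 13 in kidney. In liver they were 0 to 2, 1 to 3 and 3 to 11, in lung 0 to 0, 0 to 4 and 0 to 4, in muscle 0 to 0, 0 to 2 and 1 to 5, and in skin 0 to 0, 0 to 2 and 0 to 1. The share of all genes called is given above for only some of the left-out libraries, so these ranges have the same limit.

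Within a tissue, libraries of the same number at different ages did not all deviate together (not every correlation was over 0.1). Different ages are different mice, so this check cannot decide whether numbers pair samples. Over tissues, the correlation within blocks of the same age and number was 0.015. The numbers were not taken to pair samples. With the replicate block there were 4 in aorta at 24 months, 2 in brain at 30 months and 0 in skin at 24 months. These counts too stand without the share of all genes called. With 4 libraries per group and as few as 7.65 M reads, changes of low genes such as Pnpla3 are the least certain.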
